A study of Mus musculus with 2 samples.

Results

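The 10 genes described here serve steroid hormone synthesis and hormone signalling in Leydig cells, the interstitial cells of the testis that make androgens. They were taken by gene symbol from the 39695 gene entries of an RNA-seq comparison of P9 testes, and each was present in the files. The data comprised 1 library from control males and 1 library from Bcas2F/-;Vasa-Cre males, both 9 days old. Bcas2 encodes a factor of the pre-mRNA splicing machinery. By the study's methods, males of both genotypes had 1 floxed and 1 deleted allele of Bcas2, and the Bcas2F/-;Vasa-Cre males also carried Vasa-Cre, a recombinase transgene active in germ cells. The deletion was therefore directed at germ cells and not at Leydig cells. Whole testes were used, so each library holds RNA of germ cells, Sertoli cells, Leydig cells and other somatic cells together. The labels give C57BL/6 as the strain and the methods a mixed background, and the number of males behind each library is not given in the sources used here. With 1 library per genotype there was no replicate check, so no p-value is given and every difference below is a difference between 2 libraries. In such bulk RNA, fewer cells of a type and less RNA per cell cannot be told apart.

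Leydig cells respond to luteinizing hormone through the receptor LHCGR, which raises cAMP and mobilizes cholesterol. STAR brings cholesterol to the inner mitochondrial membrane, CYP11A1 converts it to pregnenolone, and HSD3B, CYP17A1 and HSD17B enzymes carry it on to androgens. The nuclear receptor NR5A1, also called SF-1, is a central activator of these genes. In mice a fetal population of Leydig cells is replaced after birth by an adult population, and HSD3B6 and HSD17B3 are enzymes of the adult cells. In the fetal testis the last step to testosterone takes place in Sertoli cells, which express Hsd17b3.

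Levels are given in RPKM, read numbers normalised to gene length and to the size of the library, as deposited. The library sizes behind them came to 19918750 reads in the control and 19331687 reads in the Bcas2F/-;Vasa-Cre library. Whole reads were worked out from the steps of the RPKM values, and 95% intervals computed from these reads (exact Poisson for a level, Clopper-Pearson for a ratio) cover counting error only. The targeted gene itself was at 39.5 RPKM in control and 25.7 RPKM in Bcas2F/-;Vasa-Cre testes, a log2 ratio of -0.60. Unless stated otherwise, a log2 ratio is that of RPKM + 1 in the Bcas2F/-;Vasa-Cre over the control library, which understates differences of low genes. The interval of a ratio is that of the reads without the added 1. For low genes it is therefore not centred on the printed log2 ratio.

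All 10 genes were detected, with mean levels from 3.72 RPKM for Srd5a1 to 178.8 RPKM for Hsd3b1. Hsd3b1 was the most abundant in both libraries, at 189.4 and 168.1 RPKM, and stood at the percentiles 96.4 and 95.9 of the 13004 protein-coding genes with a mean of at least 1 RPKM. In the control library it was followed by Scarb1, Hsd17b3, Cyp17a1, Nr5a1 and Cyp11a1, then by Star, and then by Insl3, Lhcgr and Srd5a1. The counting intervals of Scarb1 and Hsd17b3, of Hsd17b3 and Cyp17a1, and of Insl3 and Lhcgr overlapped there. An overlap alone does not show that neighbours are alike, and whether they differed beyond counting error was not tested. In the Bcas2F/-;Vasa-Cre library Cyp17a1 moved from the fourth to the second place, and only Scarb1 and Hsd17b3 overlapped. Comparisons between genes rest on the gene lengths used by the authors, which are not given in the sources used here.

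**Figure D1:**
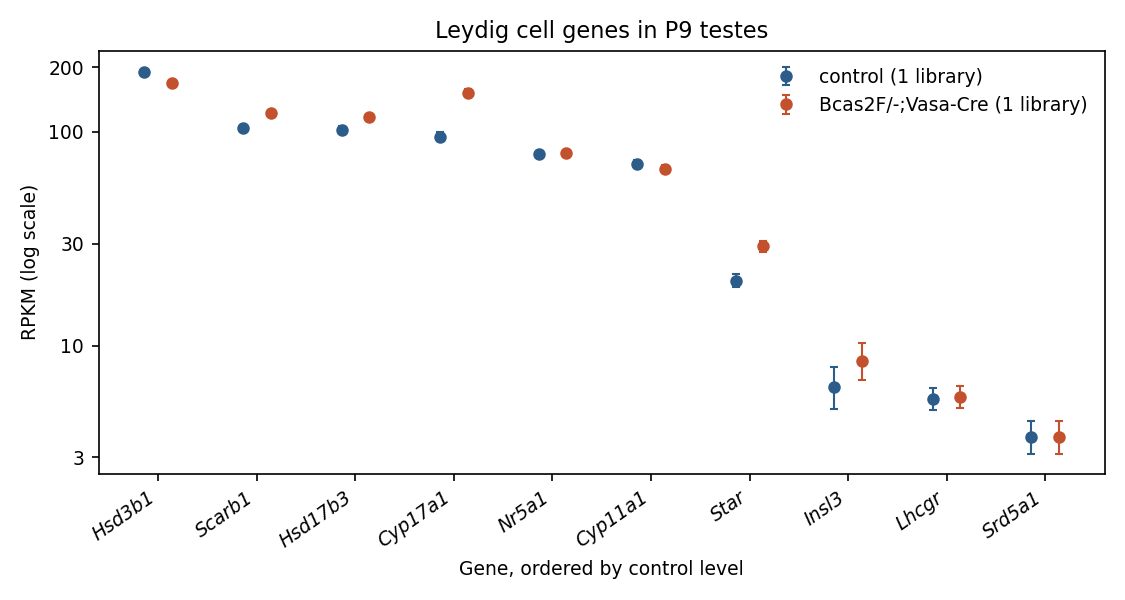
RPKM on a log scale (vertical axis) of the 10 Leydig cell genes (horizontal axis, ordered by control level) in the control library (blue) and the Bcas2F/-;Vasa-Cre library (orange). Bars are 95% Poisson intervals of the reads and cover counting error only; Cyp17a1 stands at 94.8 and 152.1 RPKM, whereas Lhcgr, Nr5a1 and Srd5a1 nearly coincide.

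The 10 genes did not move together. Cyp17a1 was 1.60-fold higher and Star 1.45-fold higher in the Bcas2F/-;Vasa-Cre library, whereas Cyp11a1 and Hsd3b1, which act between them in the pathway, were slightly lower at 0.95-fold and 0.89-fold. Lhcgr, Nr5a1 and Srd5a1 differed by under 3%. In all, 7 genes were higher and 3 lower, with a median log2 ratio of 0.11 and a range from -0.17 to 0.68. The median was 0.19 over the 9 genes with a mean of at least 5 RPKM, which leaves out Srd5a1. Over the 14831 genes with a mean of at least 1 RPKM the median was 0.015, and 53.7% of them were higher. Of the 10 genes, 1 was more than 1.5-fold higher, against 1.57% of all 14831 genes, and 0 were more than 1.5-fold lower, against 1.69%. The counting interval lay above 0 for 4 genes (Cyp17a1, Star, Scarb1 and Hsd17b3), against 18.4% of the 14437 genes for which it could be computed, and below 0 for 1 gene (Hsd3b1), against 16.9%. An interval away from 0 was thus common among all genes.

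**Figure D2:**
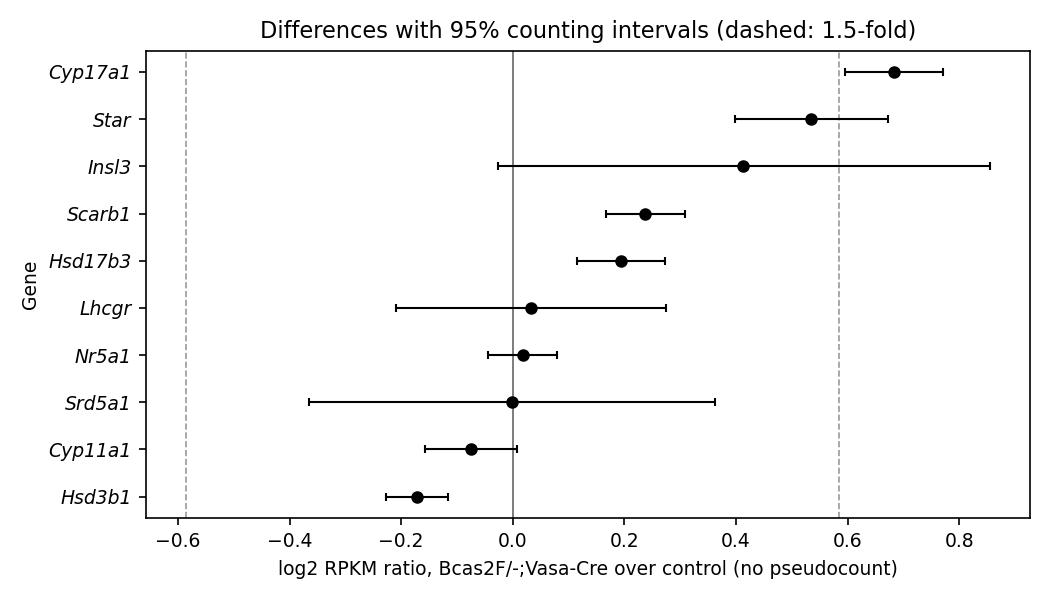
Log2 RPKM ratio of Bcas2F/-;Vasa-Cre over control without a pseudocount (horizontal axis) for each gene (vertical axis). Bars are 95% Clopper-Pearson intervals of the reads, and the dashed lines mark 1.5-fold in either direction; the interval of Cyp17a1 lies beyond the line, that of Star crosses it, and that of Insl3 spans 0.

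The hormone receptor and the nuclear regulator were level between the libraries. Lhcgr, the receptor for luteinizing hormone (GRCm38 chr17:88716481-88791990, minus strand), was at 5.62 RPKM in control and 5.75 RPKM in Bcas2F/-;Vasa-Cre testes. These values rest on few reads, 286 and 284, and the interval of the log2 ratio ran from -0.21 to 0.27. Nr5a1, which encodes SF-1 (chr2:38692656-38714542, minus strand), was at 78.9 and 79.8 RPKM. With 4194 and 4120 reads its interval was much narrower, from -0.04 to 0.08, so a difference as large as that of Cyp17a1 or Star lay outside it.

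Both genes of cholesterol delivery were higher in the Bcas2F/-;Vasa-Cre library. Star, whose product feeds cholesterol to the first enzyme (chr8:25806555-25815982, plus strand), was at 20.1 RPKM in control and 29.1 RPKM in Bcas2F/-;Vasa-Cre testes. Its log2 ratio was 0.51, just inside 1.5-fold, with a counting interval of 0.40 to 0.67. Of the 14831 genes, 306 including Star were as high or higher, and of the 6011 with a mean of at least 20 RPKM, a limit chosen after the values were seen, 12 were. Scarb1, a receptor that takes up cholesterol from lipoproteins (chr5:125277087-125341094, minus strand), was at 103.9 and 122.5 RPKM, a log2 ratio of 0.24 (interval 0.17 to 0.31.) Log2 ratios as high or higher were found for 1631 of the 14831 genes and 228 of the 6011, Scarb1 included.

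Among the enzymes, the difference was largest for Cyp17a1. CYP17A1 is the hydroxylase and lyase that turns progestins into androgen precursors (chr19:46667165-46673172, minus strand). It was at 94.8 RPKM in control and 152.1 RPKM in Bcas2F/-;Vasa-Cre testes, and the log2 ratio of 0.68 was the highest of the 10 genes. It had 1737 and 2705 reads, and the interval of the log2 ratio was 0.59 to 0.77. Its log2 ratio was reached by 172 of the 14831 genes, itself included. Of the 6011 genes with a mean of at least 20 RPKM, 9 were more than 1.5-fold higher and 5, Cyp17a1 among them, reached its log2 ratio. Set against the median of the Sertoli cell markers instead of the whole library, an alternative chosen after the values were seen, Cyp17a1 was at 0.56, just inside 1.5-fold.

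The steps on either side of Cyp17a1 differed less. Cyp11a1, the cholesterol side-chain cleavage enzyme that commits cholesterol to steroids (chr9:58006411-58027023, plus strand), was at 70.7 RPKM in control and 67.1 RPKM in Bcas2F/-;Vasa-Cre testes. Its log2 ratio of -0.07 had an interval of -0.16 to 0.01 that included 0. Relative to Cyp11a1 in the same library, Cyp17a1 went from 1.34 to 2.27 and Star from 0.284 to 0.434, while Hsd3b1 went from 2.68 to 2.50. Hsd17b3, which makes testosterone in the last step (chr13:64058266-64089230, minus strand), was at 102.2 and 116.8 RPKM, a log2 ratio of 0.19 (interval 0.11 to 0.27.) Srd5a1, a reductase of testosterone and progestins (chr13:69573449-69611442, minus strand), was the lowest of the 10 genes, at 3.72 RPKM in each library. It had only 131 and 127 reads, and the interval of its log2 ratio was wide, from -0.37 to 0.36.

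Hsd3b1 encodes the dehydrogenase and isomerase that converts pregnenolone to progesterone (chr3:98852194-98859794, minus strand). It was lower in the Bcas2F/-;Vasa-Cre library, with a log2 ratio of -0.17 and an interval of -0.23 to -0.12. Its paralog Hsd3b6, the form of adult Leydig cells, was at 0.451 RPKM in control and 0.402 RPKM in Bcas2F/-;Vasa-Cre testes, from 15 and 13 reads. Hsd3b1 thus exceeded Hsd3b6 by 420-fold and 418-fold in the 2 libraries. The coding sequences of these paralogs, as annotated in GENCODE M21, are each 1122 bases long and identical at 1010 of them, and their longest identical stretch is 72 bases. How reads matching both genes were counted is not given in the sources used here. The stretch of 90 coding bases in which they differ most, coding positions 64 to 153 in each, is shown because such bases tell reads of the paralogs apart. Capitals mark the 19 bases that differ.
Hsd3b1: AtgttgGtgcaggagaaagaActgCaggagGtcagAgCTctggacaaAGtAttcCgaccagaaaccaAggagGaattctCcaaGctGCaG
Hsd3b6: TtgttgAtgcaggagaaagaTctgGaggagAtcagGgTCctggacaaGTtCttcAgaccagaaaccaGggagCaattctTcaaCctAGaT

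Insl3 is the only hormone among the 10 genes, an insulin-like peptide of Leydig cells that guides the descent of the testis. It was at 6.37 RPKM in control and 8.47 RPKM in Bcas2F/-;Vasa-Cre testes, a log2 ratio of 0.36 (0.41 without the added 1). With 79 and 102 reads the interval ran from -0.03 to 0.85 and included 0, so the difference was within counting error. The level of Insl3 is uncertain for a further reason. In the annotation of Insl3 (chr8:71689214-71690575, plus strand), 404 of its 623 exon bases (64.8%) are also annotated as exons of Jak3, on the same strand. How reads on these shared bases were counted is not given in the sources used here. Jak3 itself was at 0.620 RPKM in control and 0.802 RPKM in Bcas2F/-;Vasa-Cre testes. Without Insl3, the median log2 ratio of the other 9 genes was 0.03 instead of 0.11, a comparison added after the values were seen. Smaller overlaps with other genes' exons were annotated for Srd5a1 (16.4% of its exon bases) and Cyp11a1 (3.02%), and none for the other 7 genes.

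**Figure D3:**
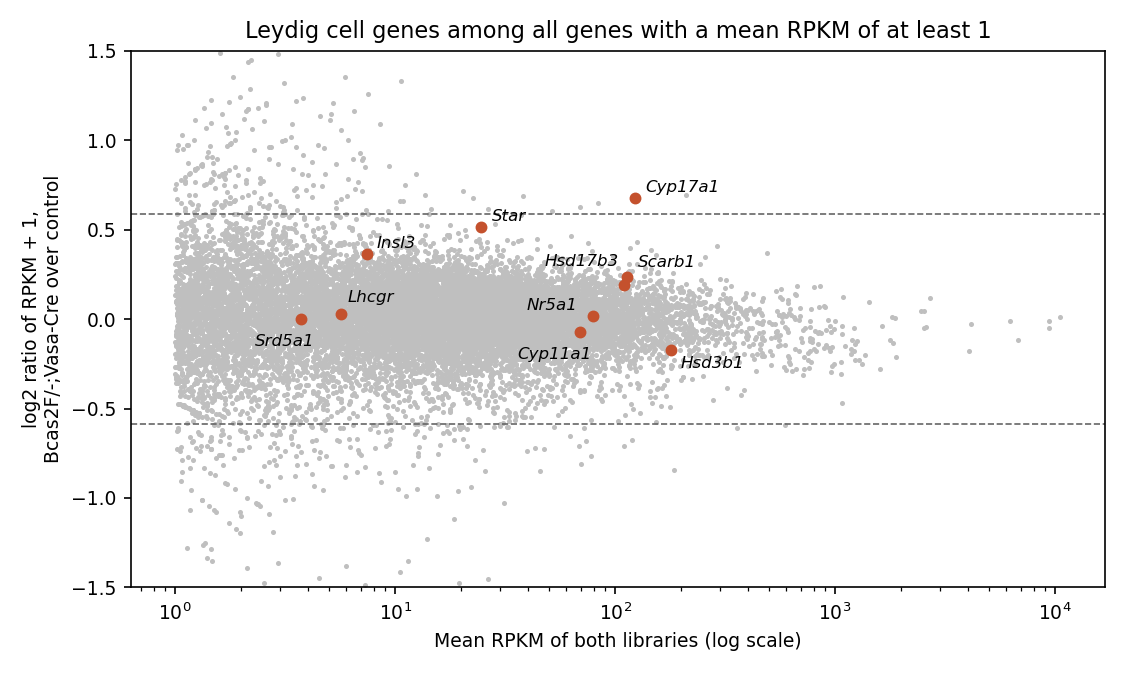
Log2 ratio of RPKM + 1 in Bcas2F/-;Vasa-Cre over control (vertical axis) against the mean RPKM of both libraries (horizontal axis, log scale) for the 14831 genes with a mean of at least 1 RPKM (grey; 37 genes lie beyond the axis) and the 10 Leydig cell genes (orange). Dashed lines mark 1.5-fold; Cyp17a1 stands above the line, where few genes of its level lie, and Star just below it.

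Of 53 further genes of steroid synthesis and Leydig cell signalling, 48 had a mean of at least 1 RPKM. Of these 48, 0 were more than 1.5-fold higher and 0 more than 1.5-fold lower, against 1.57% and 1.69% of all genes, shares at which fewer than 1 of 48 would be met in either direction. In all, 29 were higher and 19 lower, and their median log2 ratio was 0.03. The interval lay above 0 for 15 of them, against 18.4% of all genes, and below 0 for 4, against 16.9%. Cyp21a1, a steroid hydroxylase counted with the adrenal genes below, was not among the 53. It was more than 1.5-fold lower, with a log2 ratio of -0.59.

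The electron donors of the steroidogenic P450 enzymes, 5 of 5 measured, ranged from -0.05 for Por, the reductase that serves CYP17A1, to 0.16 for Fdxr, which with Fdx1 supplies electrons to CYP11A1. Cyb5a, which favours the lyase step of CYP17A1, was at 125.2 RPKM in control and 126.9 RPKM in Bcas2F/-;Vasa-Cre testes. In whole-testis RNA, Por and Cyb5a were thus level while Cyp17a1 was higher. The levels of these donors in Leydig cells alone were not measured.

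Of the 10 genes of cholesterol supply and storage, 3 were higher and 7 lower. They ran from -0.18 for Apoe, an apolipoprotein, to 0.17 for Abca1, a cholesterol exporter, with a median of -0.05.

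Of the other steroid-converting enzymes, 8 of 12 had a mean of at least 1 RPKM, with log2 ratios from -0.24 for Hsd17b7 to 0.27 for Hsd17b1 and a median of -0.07. Hsd17b1, which reduces estrone to estradiol, was at 23.0 RPKM in control and 28.0 RPKM in Bcas2F/-;Vasa-Cre testes. Aromatase, encoded by Cyp19a1, had only 3 and 2 reads.

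The 12 transcription factors had a median log2 ratio of 0.13, with 10 higher and 2 lower. The highest was Tcf21 at 0.28, a factor of interstitial progenitor cells, and the lowest Cebpb at -0.25, with an interval that included 0. Gata4, a partner of SF-1, was at 133.4 and 134.1 RPKM, and Nr0b1, which encodes the SF-1 repressor DAX-1, at 27.0 and 26.7 RPKM. Nr5a1, Gata4 and Nr0b1 were therefore level between the libraries in whole-testis RNA. Their levels in Leydig cells alone were not measured.

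Of the 14 genes of cAMP and paracrine signalling, 13 had a mean of at least 1 RPKM, 10 were higher, and the median was 0.13. The range was from -0.09 for Pdgfa to 0.26 for Dhh, which is also counted among the Sertoli cell markers below. Both encode signals that act on Leydig cells in the postnatal and fetal testis, and Dhh is made by Sertoli cells. Ptch1, the receptor of DHH, had a log2 ratio of 0.17, and Pde8b, a phosphodiesterase of steroidogenic cells, was at 16.6 and 18.5 RPKM. The exons of Dhh, Pdgfa and Cebpb partly overlap those of other genes in the annotation, so their values are less certain.

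Genes that separate fetal from adult Leydig cells differed little or were barely detected. Thbs2, expressed by fetal Leydig cells, was at 12.1 RPKM in control and 12.2 RPKM in Bcas2F/-;Vasa-Cre testes. The other fetal genes, Crhr1 and Mc2r, were at 0.429 and 0.129 RPKM in control and at 0.442 and 0.132 RPKM in Bcas2F/-;Vasa-Cre testes. Among the adult genes Hsd17b3 was abundant in both libraries. Hsd3b6 was at only 0.451 and 0.402 RPKM, and Sult1e1, an estrogen sulfotransferase, at 0.359 and 0.452 RPKM. Which cells the reads of Hsd17b3 and Thbs2 came from was not determined in whole-testis RNA. Prlr, the prolactin receptor, was at 13.9 and 15.5 RPKM, and Ptgds, a prostaglandin synthase, at 24.3 RPKM in each library.

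Adrenal genes were near the limit of detection, with 1 exception. Cyp11b2 was listed at 0 in both libraries and Cyp11b1, the enzyme of the last step to corticosterone, had 10 and 6 reads. Cyp21a1, the steroid hydroxylase needed for corticosteroids, was at 3.25 RPKM in control and 1.82 RPKM in Bcas2F/-;Vasa-Cre testes. It had 70 and 38 reads and a log2 ratio of -0.59. Without the added 1 its log2 ratio was -0.84, with an interval of -1.45 to -0.25. In the annotation, 4.77% of the exon bases of Cyp21a1 overlap the pseudogene Tnxa on the opposite strand. Any link between the lower Cyp21a1 and the higher Cyp17a1 was not tested, nor whether the same cells express both.

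Markers of other cells of the testis also differed between the libraries, and their part in the values of the Leydig cell genes was not tested. All 10 germ cell markers were lower in the Bcas2F/-;Vasa-Cre library, from -0.61 for Stra8, a gene of meiotic entry and the one past 1.5-fold, to -0.25 for Ddx4. Their summed level was 960.4 RPKM in control and 730.2 RPKM in Bcas2F/-;Vasa-Cre testes. By real-time RT-PCR at the same age, the paper reported similar mRNA of Ddx4 (Mvh), Sohlh1, Kit, Dazl and Stra8 in both genotypes. Its RT-PCR used replicate samples with Gapdh as the reference, whereas the values here come from 1 library per genotype scaled by library size. For Sycp3 (Scp3) the paper reported lower mRNA in Bcas2F/-;Vasa-Cre testes. In the annotation, 52.2% of the exon bases of Sycp3 overlap Chpt1 on the opposite strand, so its value here is less certain. Of the 10 Sertoli cell markers, 9 had a mean of at least 1 RPKM and 8 of these were higher, from -0.10 for Gata1 to 0.36 for Amh, with a median of 0.12. Their summed level was 3311 and 3613 RPKM, most of it from Clu, and Rhox5 was listed at 0 in both libraries.

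None of the peritubular, endothelial, macrophage and red cell markers was as much higher as Cyp17a1 or Star. The 6 peritubular myoid cell markers summed to 539.2 and 504.3 RPKM, with log2 ratios from -0.13 for Acta2 to 0.09 for Cnn1. The 5 endothelial markers summed to 54.1 and 47.9 RPKM, from -0.38 for Egfl7 to 0.08 for Kdr. The 5 macrophage markers summed to 31.6 and 29.1 RPKM, from -0.71 for Cd14, which was past 1.5-fold, to 0.10 for Mrc1. The 6 red cell markers summed to 979.5 and 943.8 RPKM, with log2 ratios from -3.38 for Slc4a1 to 0.11 for Hbb-bs, and Slc4a1 and Hbb-bt (-1.03) were past 1.5-fold. The globin genes are near-identical copies, between which reads may be split. Some markers also share exon bases with other genes in the annotation, the peritubular marker Tagln 62.4% with Gm48529, so their values are less certain. The summed level of the 6 Leydig cell markers Star, Cyp11a1, Cyp17a1, Hsd3b1, Lhcgr and Insl3 was 387.0 RPKM in control and 430.7 RPKM in Bcas2F/-;Vasa-Cre testes. Without Cyp17a1, a sum added after the values were seen, the other 5 were at 292.2 and 278.6 RPKM, so the higher sum rested on Cyp17a1. Most of the sum without Cyp17a1 came from Hsd3b1, at 189.4 and 168.1 RPKM. Hsd3b1 was lower and Star higher in the Bcas2F/-;Vasa-Cre library, whereas the counting intervals of Cyp11a1, Lhcgr and Insl3 included 0.

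**Figure D4:**
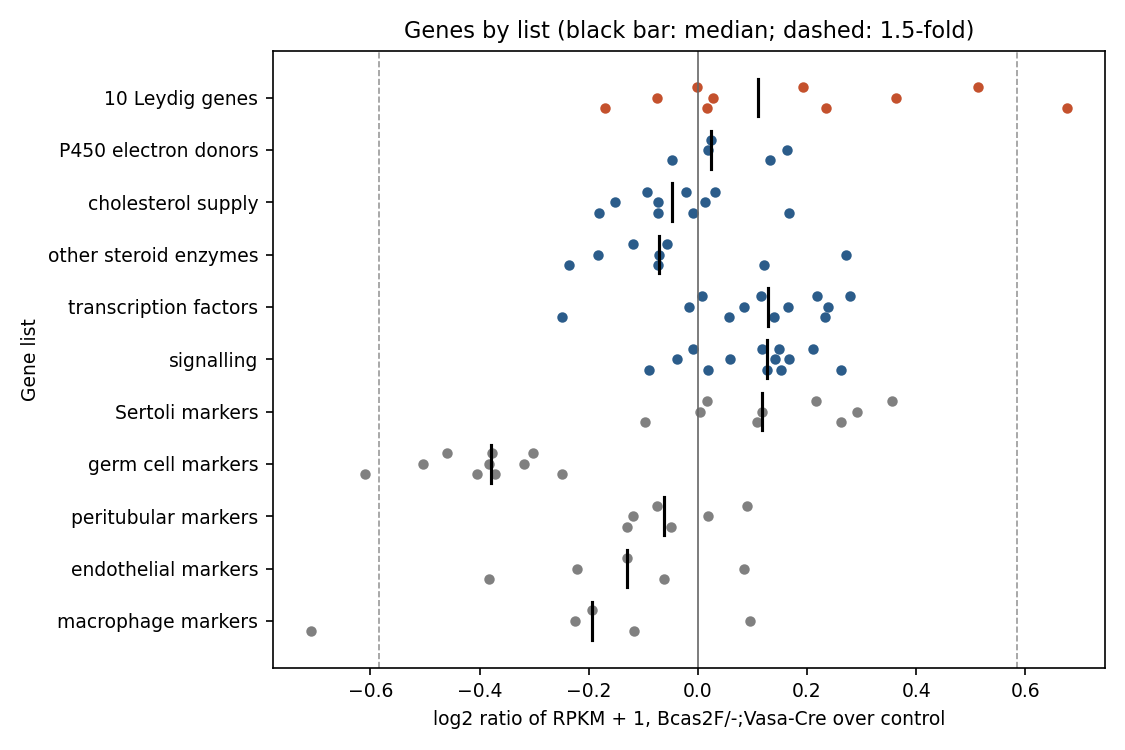
Log2 ratio of RPKM + 1 in Bcas2F/-;Vasa-Cre over control (horizontal axis) for the genes of each list shown (vertical axis) with a mean of at least 1 RPKM; red cell, fetal, adult and adrenal lists are not plotted. Points are genes, black bars are medians and dashed lines mark 1.5-fold; the 10 Leydig cell genes (orange) run from -0.17 to 0.68, whereas all 10 germ cell markers lie below 0.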

How the data were processed

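RNA from whole P9 testes was sequenced in 1 control and 1 Bcas2F/-;Vasa-Cre library. The authors removed adaptors and low-quality reads, aligned the read pairs with TopHat2 2.0.9 to mm10 (submitters' processing notes), used HTSeq to count them on genes, and deposited RPKM values, zeros included. The annotation release and gene lengths are not given in the sources used here. Of 39695 entries, 37606 were matched by Ensembl identifier to GENCODE M21 (GRCm38), the source of symbols, positions and lengths.

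Log2 ratios of RPKM + 1 were computed where the mean RPKM reached 1. Because each read adds a fixed step to a gene's RPKM, RPKM ratios between the libraries are ratios of whole reads once corrected for the ratio of library sizes. This held for 98.8% of the 22040 genes above 0 in both, at a chance of a match under 5%. Library sizes came from genes with 1 annotated transcript, of which 520 of 1247 gave the same number. The multiple of reads followed the mean transcript length in M21. Where that gave no whole multiple (a different gene length), the smaller neighbour was taken, which widens the interval, or a multiple of 1. No test was run, since there was 1 library per genotype.

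The named genes were the 10 members, the highest and lowest gene of each other list, genes past 1.5-fold, and all fetal, adult and adrenal genes. Other genes named beside them (Fdx1, Cyb5a, Gata4, Nr0b1, Ptch1, Pde8b, Jak3, Clu, Cyp19a1, Rhox5, Tagln) were chosen after their values were seen. The members and lists were chosen with earlier results of these data known. The procedures were tested on simulated data. Alternatives were other pseudocounts, filters and scalings and the ratio of reads. Python 3.11.15, numpy 2.4.6, scipy 1.17.1, pandas 2.3.3, matplotlib 3.10.9 and Biopython 1.88 were used.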

Additional observations from a re-analysis of the deposited data

How the results depend on the processing

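Over the alternative pseudocounts and scalings and the ratio of reads, Scarb1, Star, Cyp11a1, Hsd3b1, Cyp17a1, Hsd17b3 and Insl3 kept their direction in 6 of 6 settings, and Lhcgr, Nr5a1 and Srd5a1, all near 0, in 5 of 6. Cyp17a1 ranged from 0.56 to 0.71 and was past 1.5-fold in all of these settings but the centring on the Sertoli cell markers. The median of the members was 0.19 with a mean RPKM of at least 5 and 0.03 without Insl3. Centring on the Sertoli cell markers, chosen after the values were seen, lowers each value by the same amount. It left 0 members past 1.5-fold and gave a median of -0.0073, with Nr5a1 at -0.10, Scarb1 at 0.12, Cyp11a1 at -0.19, Hsd3b1 at -0.29, Cyp17a1 at 0.56 and Hsd17b3 at 0.075.

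The counts over all genes depended on the setting, and the cause was not tested. More than 1.5-fold lower and higher were 251 and 233 genes as reported, 457 and 454 with a pseudocount of 0.1, 485 and 491 with 0.01, 468 and 511 without a filter, 104 and 46 with a mean RPKM of at least 5, and 475 and 438 by the ratio of reads. With RPKM rescaled to a sum of 1000000 they were 356 and 434, and 267 and 221 after centring all genes on their median. No paired analysis was possible because each genotype had 1 library. Leaving out a library was not possible for the same reason.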
